A study of Mus musculus with 6 samples.

Results

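Hgf and 9 further growth factor genes were examined in liver endothelial cells (ECs) of young and aged mice. The 10 genes are the ligands Hgf, Kitl, Pdgfa, Pdgfb, Hbegf, Areg, Mdk and Fgf1, the HGF-activating protease gene Hgfac and the HGF receptor gene Met, out of 24421 gene symbols in the count table. They were picked with the difference between the ages in view, so their values are given as a description and without a test. ECs were sorted by flow cytometry as CD31+CD45- cells from the livers of wild-type C57BL/6J mice (all females), and RNA was taken from 50000 cells per sample. The young group held 3 samples from mice aged 10 weeks and the aged group 3 samples from mice of 127, 131 and 136 weeks, and the labels give no treatment or transgene. The comparison addresses how the transcriptome of liver ECs differs with age. One strain and one sex were sampled, and each sample is a whole sorted population, so a smaller number of cells of one type and less RNA per cell cannot be told apart.

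Liver ECs line the sinusoids and the larger vessels and release growth factors that act on neighbouring cells, a role called angiocrine signalling. HGF is made as an inactive precursor that serine proteases cut, and the active form binds the receptor tyrosine kinase MET on hepatocytes and other cells, where it drives growth and survival. HB-EGF and amphiregulin (Areg) act through the EGF receptor family, PDGFs through PDGF receptors on pericytes and stellate cells, KIT ligand (Kitl) through KIT, and FGF1 through FGF receptors. Midkine (Mdk) binds heparan sulfates and several cell surface receptors.

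The libraries held 23001556 to 31651817 counts. At that depth 3 counts, the floor used here, corresponded to 0.0947 to 0.135 CPM (counts per library size, after TMM scaling). Such a floor covers counting error only. Lars2 and Rn45s, which collect ribosomal RNA reads, took 1.29% (young replicate 3) and 0.960% (127 weeks) of the counts, against 4.68% to 5.53% elsewhere, so differences within these 2 sets of libraries are given beside the pooled ones. The set with few such reads holds 1 young and 1 aged sample, so its differences have no replicate. The sinusoidal genes Stab1 and Stab2 had CPM values of 2657 to 2897 and 2902 to 3199 in the young samples, so genes that define sinusoidal ECs were abundant in the sorted cells. Ptprc, the gene of CD45, was at 1.17 to 1.70 CPM in the young samples and at 7.57, 1.28 and 25.6 CPM in the 127-, 131- and 136-week samples. With edgeR's quasi-likelihood test, 0 of 14612 tested genes passed an adjusted p of 0.05 and a fold beyond 1 on the log2 scale. Unadjusted p values lay below 0.05 for 1847 genes, while DESeq2 called 472 genes and limma-voom 15.

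Hgf lies at chr5:16059368-16125257 (mm9, plus strand), Hgfac at chr5:35384202-35391085 (plus), Areg at chr5:91568641-91577458 (plus) and Pdgfa at chr5:139451968-139473324 (minus). Met lies at chr6:17413800-17523980 (plus), Kitl at chr10:99478264-99563047 (plus), Pdgfb at chr15:79826330-79845238 (minus) and Mdk at chr2:91769962-91772454 (minus).

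The 4 genes whose CPM values did not overlap between the ages were Hgf, which was lower in the aged samples, and Met, Pdgfa and Pdgfb, which were higher. The 250 bases before the first annotated start of Hgf, Met and Pdgfa (mm9, read 5′ to 3′ on the strand of the gene) are shown as examples of their promoters. Capitals mark matches on either strand to CCAAT (the CCAAT box), GGGCGG (the GC box), TATAAA (the TATA box) or TGANTCA (the AP-1 motif). They cover chr5:16059118-16059367 (plus), chr6:17413550-17413799 (plus) and chr5:139473325-139473574 (minus).
Hgf: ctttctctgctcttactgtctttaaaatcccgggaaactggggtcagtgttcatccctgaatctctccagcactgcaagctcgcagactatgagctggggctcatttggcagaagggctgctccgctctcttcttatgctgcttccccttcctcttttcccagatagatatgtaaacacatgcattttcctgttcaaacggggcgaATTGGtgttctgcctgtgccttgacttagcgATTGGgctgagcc
Met: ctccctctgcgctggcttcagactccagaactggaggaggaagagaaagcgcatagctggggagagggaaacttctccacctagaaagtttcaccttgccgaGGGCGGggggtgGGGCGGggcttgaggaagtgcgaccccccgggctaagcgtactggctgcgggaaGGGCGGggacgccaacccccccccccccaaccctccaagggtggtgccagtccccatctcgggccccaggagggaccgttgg
Pdgfa: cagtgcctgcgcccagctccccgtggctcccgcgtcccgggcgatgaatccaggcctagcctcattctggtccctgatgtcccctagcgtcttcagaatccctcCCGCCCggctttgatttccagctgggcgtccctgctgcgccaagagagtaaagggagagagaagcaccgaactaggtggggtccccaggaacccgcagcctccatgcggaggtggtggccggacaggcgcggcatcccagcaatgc
These 3 sequences do not cover all genes with a difference, so nothing about the direction with age is read from them. Hgf had 2 CCAAT matches, which start at positions -44 and -13 from the gene start, both on the strand opposite to the gene. Met had 3 matches to GGGCGG at -148, -136 and -82, and Pdgfa had 1 at -146. Of 22375 promoters of protein-coding genes cut in the same way, 35% held the CCAAT box letters, 39.6% those of the GC box, 12.3% those of the TATA box and 6% those of the AP-1 motif. The GC content was 50.4% for Hgf, 65.6% for Pdgfa and 66.8% for Met, against a median of 54.0% over all these promoters. A match is a description of the letters and not a binding site, and the count data do not bear on which start was used.

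Hgf was much lower in aged ECs. Its FPKM values (fragments scaled to transcript length and library size, as deposited, which allow genes to be compared per length) were 17.7, 23.2 and 20.8 in young replicates 1 to 3, and 2.62, 4.43 and 4.87 in the 127-, 131- and 136-week samples. The highest aged value lay far below the lowest young one. The means were 20.5 ± 2.75 FPKM (SD, n = 3) for the young and 3.97 ± 1.19 FPKM (SD, n = 3) for the aged samples, a 5.16-fold difference, which moved Hgf from the 83.7th to the 63.6th percentile of all genes in the FPKM table.

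The counts behind these values were large. Hgf had 1178, 1301 and 1640 counts in the young samples and 184, 287 and 315 in the aged ones, or 43.8, 58.7 and 51.7 CPM against 6.33, 11.2 and 12.8 CPM. The log2 fold change (aged minus young) was -2.35 (SE 0.28) in edgeR. It lay between -2.56 and -2.098 over 14 alternative settings, and was -2.08 within the 4 libraries with many and -3.02 within the 2 libraries with few ribosomal reads. In all, 0.609% of the tested genes had a log2 fold change as low or lower. Of all tested genes, 17.9% did not overlap between the ages, 8.33% with all aged values below and 9.62% with all aged values above the young ones. Since the members were picked on this contrast, nothing is read from their count against that share.

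**Figure D1:**
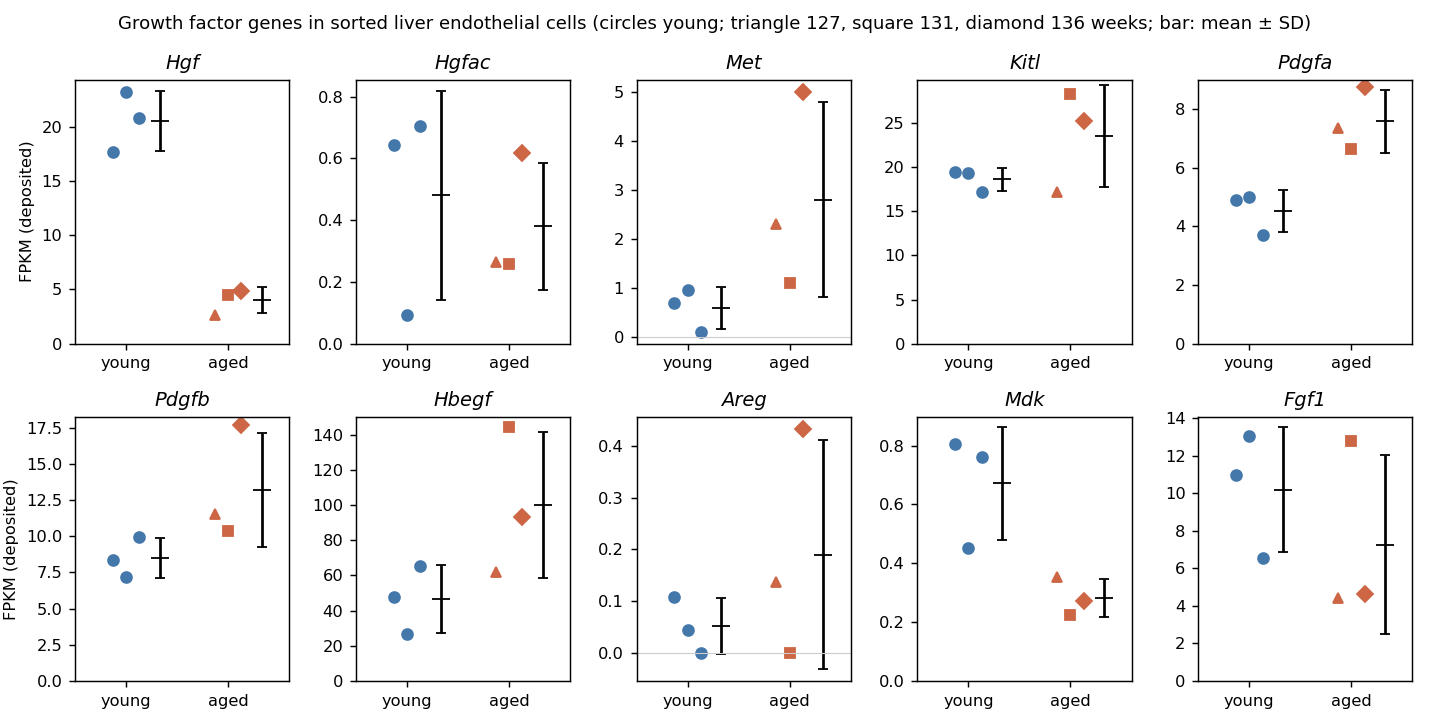
Deposited FPKM (vertical axes, linear, 1 panel per gene) of the 10 growth factor genes in the 3 young and 3 aged samples, with the group mean ± SD beside the points. The aged Hgf values of 2.62 to 4.87 FPKM lie below the young values of 17.7 to 23.2, while the Met, Pdgfa and Pdgfb values of the aged samples lie above the young ones.

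Hgf was set beside markers of the cells in the sort and around it. Of all tested genes, 48.9% had a log2 fold change below 0, and 8.33% had all aged values below the young ones. Of 10 sinusoidal EC markers, 9 were lower in the aged samples and 8 did not overlap, and their summed CPM was 21314 to 23673 in the young samples and 9540, 15319 and 9366 in the 127-, 131- and 136-week samples. Stab2, a scavenger receptor of sinusoidal ECs, had the lowest log2 fold change of the 10, at -1.70 (edgeR, adjusted p = 0.265). The list median was -0.99, and Stab1 was at -0.73. The ratio of Hgf to Stab2 FPKM was 0.0508, 0.0603 and 0.0566 in the young samples and 0.0439, 0.0211 and 0.0752 in the aged ones. The ages thus overlapped in this ratio, with the 136-week sample highest and the 131-week sample lowest. Ratios to the other sinusoidal markers were not computed, so the overlap is shown for Stab2 only. The ratio of Hgf to Pecam1, the gene of CD31, was 0.0412 to 0.0543 in the young and 0.00608 to 0.0104 in the aged samples, with no overlap. The part of the sinusoidal markers in the Hgf difference was not tested.

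Stellate cells are a known source of HGF in the liver. Of 16 stellate and mural cell markers, 10 were lower and 6 higher in aged samples, where 48.9% of all tested genes were lower. Their summed CPM of 467 to 1054 in young and 694 to 1045 in aged samples overlapped. Lrat, which makes retinyl esters in stellate cells, was at 23.6, 8.12 and 4.51 CPM in the young and 2.1, 1.67 and 4.18 CPM in the aged samples (log2 fold change -2.19, edgeR, adjusted p = 0.286). Pdgfrb (0.23) and Reln (1.23) had log2 fold changes above 0 and overlapped between the ages. Gdf2 (-3.34, edgeR, adjusted p = 0.277), Col3a1 (-1.34) and Col1a1 (-1.26) lay below 0 and also overlapped, and the list median was -0.51. The ratio of Hgf to Lrat FPKM overlapped, at 4.01, 15.2 and 24.0 in the young and 6.59, 14.2 and 6.23 in the aged samples. The ratio of Hgf to Dcn, another gene of the list, did not (0.223 to 2.11 in young, 0.0657 to 0.162 in aged). Ecm1 (-0.23) and Reln were the largest genes of the stellate and mural sum in each sample. Hepatocyte markers summed to 333 to 425 CPM in the young and 224 to 371 CPM in the aged samples, and 16 of 17 had a log2 fold change below 0. The exception, Trf (0.33), was the largest gene of this sum in each sample. It was at 172, 135 and 116 CPM in the young and 185, 105 and 243 CPM in the aged samples. Mesothelial markers summed to 3.93 to 6.74 CPM and 0.310 to 3.98 CPM. Of the mesothelial genes, Wt1 was at 0 in all but young replicate 2. The part of stellate, hepatocyte and mesothelial RNA in the Hgf difference was not tested.

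**Figure D2:**
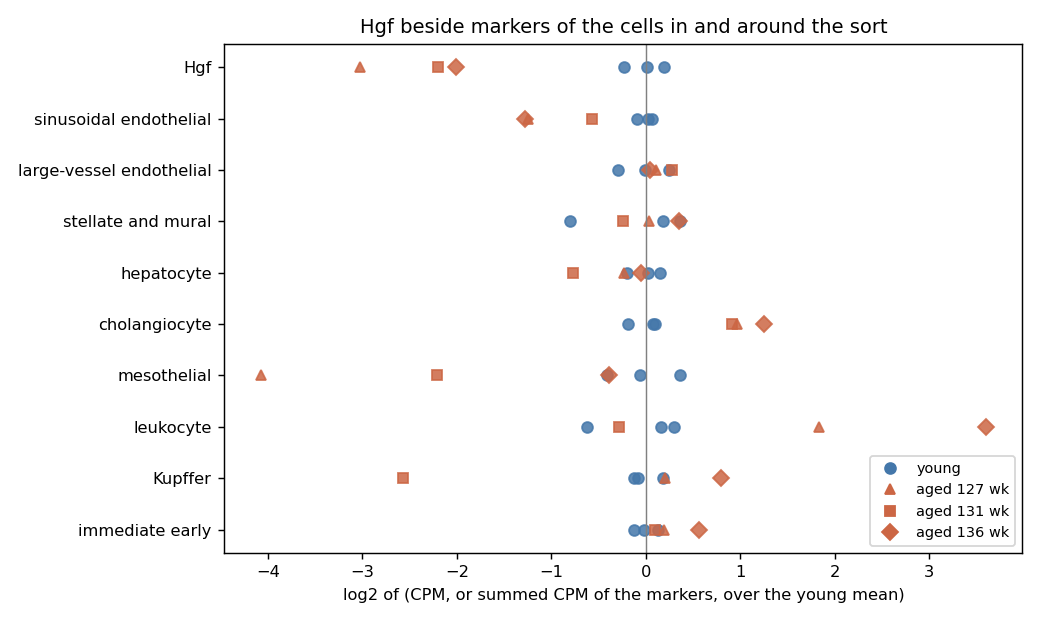
Hgf CPM and the summed CPM of marker lists (rows) in each sample, as the log2 ratio to the mean of the 3 young samples (horizontal axis). Hgf lies lowest in the 127-week sample (6.33 CPM), sinusoidal markers lie below the young samples in all 3 aged samples, and the leukocyte list spreads from 34.3 to 507 CPM among the aged samples.

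The genes whose log2 CPM followed that of Hgf most closely over the 6 samples were G6pc, M6pr, 3632451O06Rik, Fcrla and Rbms2, with Pearson r of 0.992, 0.992, 0.990, 0.985 and 0.979. They are the top of 14611 genes over 6 samples that share age group and libraries, so the values describe likeness only. G6pc, which encodes the catalytic subunit of glucose-6-phosphatase, was at a mean of 1.37 CPM in young and 0.0801 CPM in aged ECs, the latter below the floor. M6pr, a receptor that carries lysosomal enzymes, differed far less than Hgf (mean CPM 216 and 179, log2 fold change -0.27).

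Hgfac encodes HGF activator, a plasma protease made mainly by hepatocytes. It had 34, 4 and 44 counts in the young samples and 16, 13 and 31 in the aged ones, or 1.27, 0.181 and 1.39 CPM against 0.550, 0.506 and 1.26 CPM. Young replicate 2 was the lowest of all 6 samples and the ages overlapped. The log2 fold change of -0.30 (SE 0.81) turned to 0.082 without young replicate 3 and to 0.37 with limma-voom, and was 0.59 and -1.23 within the sets of libraries with many and few ribosomal reads. No direction with age was therefore shown for Hgfac at this depth. The ratio of Hgfac to Alb FPKM, times 1000, was 20.7, 4.34 and 17.6 in the young and 11.8, 10.7 and 32.3 in the aged samples, where Alb marks hepatocyte RNA.

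The other genes that act on the HGF precursor were tested as part of 13 lists of 135 pathway genes, of which 108 passed the filter on low counts. In edgeR, 0 of them passed the adjusted threshold. A looser rule, a log2 fold change beyond 1 with an unadjusted p below 0.05, was met by 6.62% of all tested genes, 5.43% higher and 1.19% lower in aged ECs. Of the 108 pathway genes, 15 were higher (13.9%, with Fgf9, Fgf14 and Fgf23, which passed the filter only through aged samples) and 4 lower (3.70%) by this rule, and the median log2 fold change was 0.26 against 0.0098. DESeq2 called 10 higher and 3 lower at an adjusted p of 0.05, where it called 2.77% and 0.54% of all genes. Without the 136-week sample the edgeR counts were 7 higher and 1 lower.

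Of 10 activating proteases and related genes, 2 met the unadjusted rule in each direction (20% each, against 5.43% higher and 1.19% lower of all tested genes). Plat, the gene of tissue plasminogen activator, was at 49.8, 39.9 and 41.2 CPM in the young and 114, 113 and 254 CPM in the aged samples, with no overlap (log2 fold change 1.88, SE 0.34, edgeR, adjusted p = 0.193). Plaur, the urokinase receptor gene, was at 26.2, 39.9 and 42.3 CPM against 85.7, 66.7 and 214 CPM (1.76, SE 0.45, edgeR, adjusted p = 0.245). Both met the rule in all 14 alternatives. The 136-week sample was the highest for both genes. Plau, the gene of urokinase, which can cut the HGF precursor, overlapped between the ages (4.35 to 11.3 CPM in young, 4.08 to 17.6 CPM in aged, log2 fold change 0.50, edgeR, adjusted p = 0.776).

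The genes lower in aged ECs on this list encode plasma proteins that hepatocytes make. Plg, the plasminogen gene, was at 3.35, 4.78 and 8.58 CPM in the young and 1.96, 2.26 and 1.34 CPM in the aged samples (log2 fold change -1.59, edgeR, adjusted p = 0.256). F2, the prothrombin gene, was at 8.26 to 14.1 CPM against 2.88 to 6.22 CPM (-1.11, edgeR, adjusted p = 0.317). Neither gene overlapped between the ages. Plg met the unadjusted rule in 13 and F2 in 10 of 14 alternatives. The hepatocyte marker sums given above overlapped, but Trf, the only marker with a log2 fold change above 0, was the largest gene in them. The median log2 fold change over the list was -0.86. The part of hepatocyte RNA in these differences was not tested. Of the other proteases, hepsin (Hpn, 0.38), matriptase (St14, 0.84), Habp2 (0.25), F12 (-0.32) and Klkb1 (-1.43) had log2 fold changes that did not meet the rule.

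Inhibitors of these proteases were measured as well. Serpine2, an inhibitor of such proteases, overlapped between the ages, at 29.8, 39.8 and 14.4 CPM in the young and 104, 31.4 and 150 CPM in the aged samples (log2 fold change 1.77, edgeR, adjusted p = 0.319). It met the unadjusted rule in 11 of 14 alternatives. Spint2, which encodes an inhibitor of HGF activator and was the most abundant of the 5 inhibitor genes tested in CPM, had 123 to 176 CPM in young and 139 to 163 CPM in aged ECs (0.0096, SE 0.17). Spint1, the gene of a second inhibitor of HGF activator, was at 0.181 to 1.64 CPM against 2.2 to 2.72 CPM (1.20, SE 0.71, edgeR, adjusted p = 0.546).

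**Figure D3:**
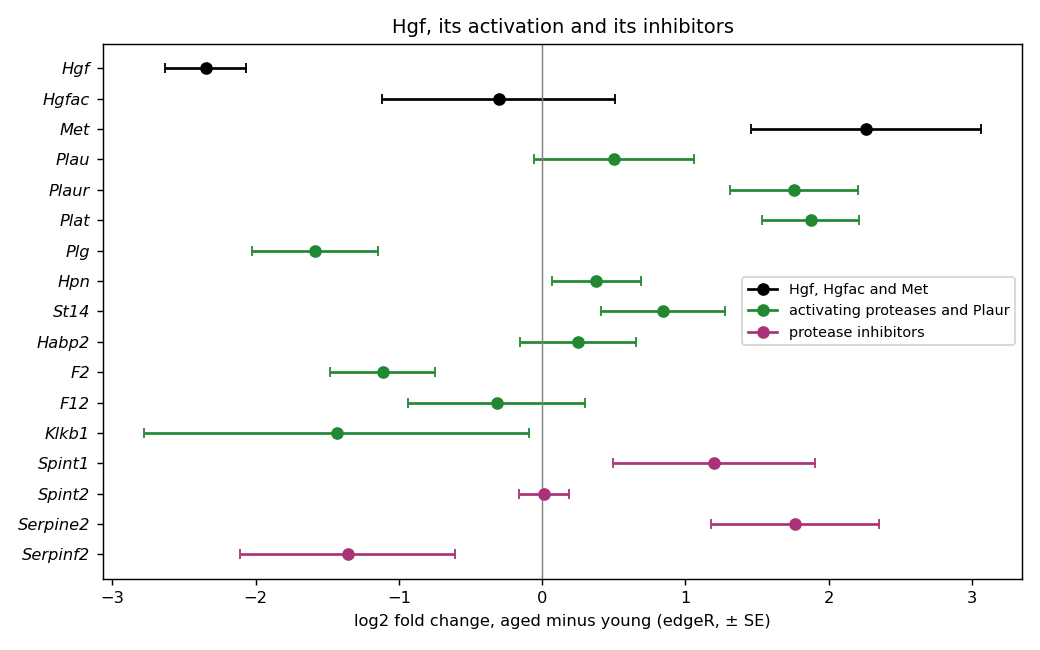
Log2 fold change (aged minus young, edgeR, horizontal axis) with its SE for Hgf, Hgfac and Met (black), activating proteases and Plaur (green) and protease inhibitors (purple). Hgf lies at -2.35 with Plg and F2 also below 0, while Plat, Plaur and Serpine2 lie between 1.76 and 1.88.

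Met, the receptor of HGF, was higher in aged ECs but varied strongly between samples. Its CPM was 4.69, 6.45 and 0.757 in the young samples and 15.4, 7.51 and 33.7 in the 127-, 131- and 136-week samples. The ages did not overlap, although the 131-week sample lay just above young replicate 2. Its FPKM was 0.592 ± 0.434 (SD, n = 3) for the young and 2.81 ± 2.00 (SD, n = 3) for the aged samples, so Met stayed below Hgf per length in the aged means. The log2 fold change was 2.26 (SE 0.80), with 1.52 and 4.22 within the sets of libraries with many and few ribosomal reads, 1.54 without the 136-week sample and 1.76 without young replicate 3. The spread of Met within the groups was wider than that of 95.7% of tested genes.

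Several marker sums followed the order of Met among the 3 aged samples, but not among the young ones. This held for the leukocyte, stellate and mural, hepatocyte, Kupffer and cholangiocyte sums, so it was not particular to leukocytes. The sinusoidal, large-vessel, mesothelial and platelet sums had other orders. The leukocyte list (13 genes) summed to 149, 34.3 and 507 CPM in the 127-, 131- and 136-week samples, the same order as Met. It summed to 51.5, 27.0 and 46.5 CPM in young replicates 1 to 3, where Met was highest in replicate 2 and lowest in replicate 3. All 13 leukocyte genes had a log2 fold change above 0, and 10 were higher by the unadjusted rule (5.43% of all tested genes were). Of the 13, 2 did not overlap between the ages and DESeq2 called 5. Some of these genes, such as Cd3d, passed the filter only through aged samples, so nothing is read from their number. Cd3d was at 0 in young replicates 2 and 3 and in the 131-week sample. Cholangiocyte markers summed to 86.7 to 105 CPM in the young and 187 to 235 CPM in the aged samples, with all 8 log2 fold changes above 0, most of the sum being Spp1. The part of any of these cells in the Met difference was not tested.

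The ratio of Hgf to Met FPKM was 25.4, 24.0 and 179 in the young samples and 1.13, 3.98 and 0.971 in the aged ones. The receptor thus stood at about the level of the ligand in the 127- and 136-week samples only. Of 23 genes for MET co-receptors and signalling, 2 met the unadjusted rule, both higher (8.70%, near the 5.43% of all tested genes). They were Itgb4, an integrin subunit (log2 fold change 1.15, edgeR, adjusted p = 0.317), and Ptprj, a receptor phosphatase (1.32, edgeR, adjusted p = 0.235). Itgb4 met the rule in 10 and Ptprj in 12 of 14 alternatives. The adaptor genes Gab1 and Grb2 differed little (0.16 and 0.15). Lrig1, which promotes loss of MET and EGF receptors, was at 15.2 to 20.1 CPM in young and 28.2 to 44.9 CPM in aged ECs (0.98, edgeR, adjusted p = 0.235).

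Hbegf (chr18:36664583-36675459, mm9, minus strand) was the most abundant of the 8 ligand transcripts per length in each sample. Its FPKM was 47.6, 26.6 and 65.5 in the young samples and 62.0, 144 and 93.3 in the 127-, 131- and 136-week samples. The 127-week sample lay below young replicate 3, so the ages overlapped. In edgeR its log2 fold change was 1.10 (SE 0.40). It was 1.69 within the 4 libraries with many ribosomal reads and -0.069 within the 2 with few, so the difference did not hold within both sets. Without the 131-week sample it was 0.73. Hbegf is also an immediate early response gene, and 12 other such genes summed to 20576 to 24475 CPM in the young and 25645, 24002 and 32989 CPM in the aged samples. These sums overlapped, but 11 of the 12 genes had a log2 fold change above 0. All aged values lay above the young ones for 7 of them and below for 1, against 9.62% and 8.33% of all tested genes. The part of this response in the Hbegf difference was not tested.

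Areg, which encodes amphiregulin, was near absent. It had 3, 1 and 0 counts in the young samples and 4, 0 and 12 in the aged ones, and it did not pass the filter on low counts. The summed CPM ratio of aged over young was 4.07 with a 95% counting interval of 1.31 to 16.7, and 12 of the 16 aged counts came from the 136-week sample. No difference between the ages can be read from it.

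Among 5 other EGF family ligands, Tgfa met the unadjusted rule. Its CPM was 29.8, 43.2 and 39.8 in the young and 94.2, 38.0 and 95.2 in the aged samples, so the 131-week sample lay within the young range (log2 fold change 1.01, SE 0.35, edgeR, adjusted p = 0.332). It met the rule in 7 of 14 alternatives. None of the 4 receptor genes met it. Erbb2, a co-receptor without a ligand of its own, was the most abundant of the 4 and lower in each aged sample, at 52.0, 55.2 and 62.0 CPM against 45.3, 45.1 and 29.1 CPM (-0.50, edgeR, adjusted p = 0.370). Egfr was at 0.447 to 2.30 CPM in all samples (-0.66).

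HB-EGF and TGF-alpha are released from the membrane by ADAM proteases. Adam17 was lower in each aged sample, at 102, 107 and 121 CPM against 97.4, 84.4 and 98.4 CPM, a small difference (log2 fold change -0.24, edgeR, adjusted p = 0.541). Adam10 had a log2 fold change of 0.046. Adam8, which is known from leukocytes, was at 0.361 to 0.663 CPM in the young and 2.99, 0.428 and 3.49 CPM in the aged samples (2.25, edgeR, adjusted p = 0.336), beside the leukocyte sums of 149, 34.3 and 507 CPM. It met the unadjusted rule in 7 of 14 alternatives. The part of leukocyte RNA in Adam8 was not tested.

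Pdgfa and Pdgfb, the genes of the PDGF chains that recruit pericytes and act on stellate cells, were both higher in aged ECs. Pdgfa was at 4.21, 4.20 and 3.12 CPM in the young and 6.67, 5.76 and 7.59 CPM in the aged samples, with no overlap. Its log2 fold change was 0.80 (SE 0.27), and 0.65 and 1.08 within the sets of libraries with many and few ribosomal reads. Pdgfa varied little within the groups, and its estimates lay between 0.63 and 0.89 over the 14 alternatives.

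Pdgfb was at 23.9, 20.6 and 27.9 CPM in the young and 32.5, 29.7 and 51.1 CPM in the aged samples. The lowest aged sample lay just above the highest young one. On the log2 scale aged minus young was 0.64 (SE 0.24), and 0.81 and 0.22 within the sets of libraries with many and few ribosomal reads. It was 0.37 without the 136-week sample. The ratio of Pdgfb to Pdgfa FPKM overlapped between the ages (1.44 to 2.68 in young, 1.56 to 2.02 in aged).

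None of the 5 other PDGF ligand and receptor genes tested met the unadjusted rule. Pdgfd was the most abundant in CPM and level between the ages (46.8 to 49.8 CPM in young, 45.9 to 60.3 CPM in aged, log2 fold change 0.13). Pdgfc was at 0.632 to 0.978 CPM against 1.03 to 3.49 CPM (1.14, edgeR, adjusted p = 0.513). The receptor genes Pdgfrb (0.23) and Pdgfra (0.59), which mark stellate and other mesenchymal cells, overlapped between the ages.

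Kitl was one of the more abundant ligand transcripts in both groups. Its FPKM was 19.4, 19.3 and 17.2 in the young and 17.2, 28.3 and 25.3 in the 127-, 131- and 136-week samples. The 127-week sample lay at the level of the young samples and the other aged samples above them. Its log2 fold change was 0.35 (SE 0.20), with 0.47 within the libraries with many ribosomal reads and 0.023 within those with few. Its receptor gene Kit was lower in each aged sample, at 450, 568 and 646 CPM in the young and 298, 315 and 124 CPM in the aged samples (-1.17, SE 0.35, edgeR, adjusted p = 0.282). Kit met the unadjusted rule in 13 of 14 alternatives, the exception being the fit without the 136-week sample. No other gene among the ligands and receptors related to KIT met it. Flt3l, the FLT3 ligand gene, was at 5.96 to 6.47 CPM in young and 3.90 to 5.23 CPM in aged ECs (-0.42, edgeR, adjusted p = 0.536).

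Mdk was barely expressed. It had 15, 6 and 15 counts in the young samples and 8, 4 and 4 in the aged ones, and it passed the filter only through young replicate 1. The CPM values overlapped by a narrow margin (0.271 in young replicate 2, 0.275 in the 127-week sample), whereas the FPKM values did not (0.452 to 0.806 in young, 0.224 to 0.352 in aged). Its log2 fold change was -1.12 (SE 0.72), and the ratio of summed CPM was 0.452 with a 95% counting interval of 0.234 to 0.835. Ptn, the related ligand, was at 1.21 to 1.82 CPM except in the 136-week sample (7.76 CPM). Among the receptors and binding partners of both, 0 met the unadjusted rule, and Sdc4, a heparan sulfate carrier, was at 29.5 to 43.4 CPM in young and 47.1 to 92.6 CPM in aged ECs (0.89, edgeR, adjusted p = 0.284).

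Fgf1 (chr18:38998327-39089058, mm9, minus strand) overlapped between the ages. Its CPM was 42.4, 50.5 and 24.9 in the young and 17.0, 49.4 and 17.9 in the 127-, 131- and 136-week samples. The 131-week sample lay between the 2 higher young samples, while the other aged samples lay below all young ones. The log2 fold change was -0.48 (SE 0.46), and -1.17 without the 131-week sample. Within the sets of libraries with many and few ribosomal reads it was -0.64 and -0.55. Of the FGF receptor genes, Fgfr1 (0.52), Fgfr2 (0.22), Fgfr3 (0.35) and Fgfr4 (0.27) did not meet the unadjusted rule.

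**Figure D4:**
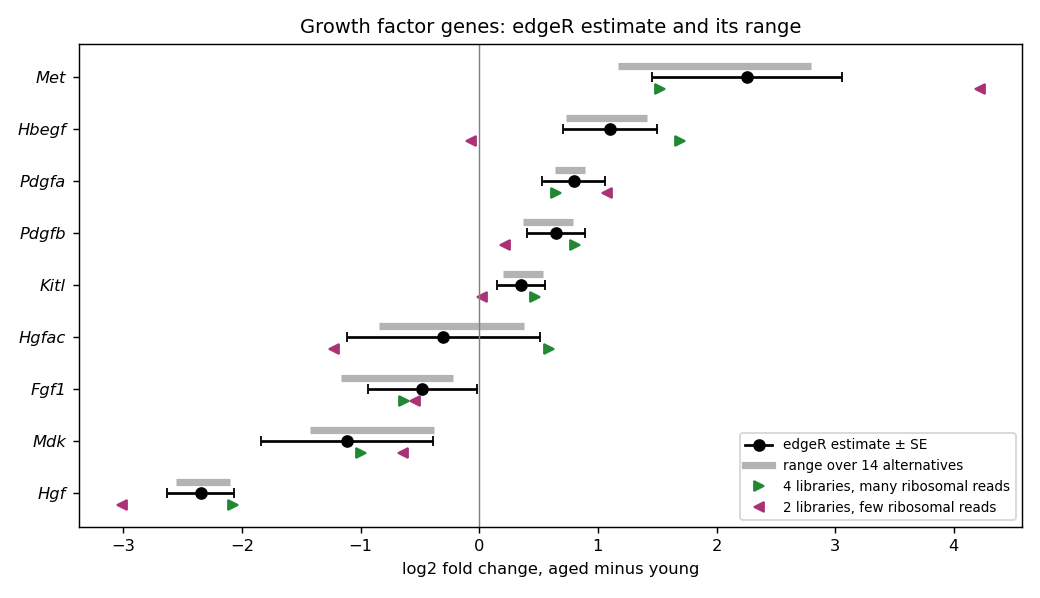
Log2 fold change (aged minus young, horizontal axis) of the 9 growth factor genes that passed the filter, as the edgeR estimate ± SE, the range over the alternatives (14, or 12 for Mdk) and the differences within the 4 libraries with many and the 2 with few ribosomal reads. Hgf stays between -2.56 and -2.098, Hgfac spans 0, and Hbegf lies at -0.069 in the libraries with few ribosomal reads.

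Other FGF genes were rare. Fgf23, Fgf9 and Fgf14 were higher by the unadjusted rule, but all 3 passed the filter on low counts only through aged samples, so nothing is read from their number. Fgf23, a phosphate-regulating hormone known from bone, had 2, 1 and 8 counts in the young and 60, 96 and 100 counts in the aged samples (log2 fold change 4.62, SE 0.71, edgeR, adjusted p = 0.178). It met the rule in all 14 alternatives. Fgf9 was at 0.0316 to 0.447 CPM in young and 0.895 to 1.67 CPM in aged ECs (2.57, edgeR, adjusted p = 0.325). Fgf14, which encodes an FGF that stays inside the cell, had 0 counts in each young sample and 4, 2 and 20 counts in the aged ones.

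Relative to each other, the 8 ligand genes had a different make-up in aged ECs. Hgf made up 16.1%, 24.4% and 16.7% of their summed FPKM in the young samples and 2.48%, 2.14% and 3.14% in the 127-, 131- and 136-week samples. Hbegf made up 43.3%, 28.0% and 52.7% against 58.7%, 69.7% and 60.1%. Neither share overlapped between the ages. The shares of a sample have a fixed total, so a lower Hgf share raises the others, and the Hbegf FPKM itself overlapped. The Kitl shares overlapped (17.3 ± 3.32% in young, 15.4 ± 1.49% in aged, SD, n = 3 each), as did Pdgfb (7.74 ± 0.220% and 9.12 ± 3.56%) and Pdgfa (4.24 ± 1.16% and 5.28 ± 1.91%). Fgf1 had 9.67 ± 4.25% and 4.44 ± 1.62%, with an overlap between young replicate 3 and the 131-week sample.

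Ratios between ligands were compared as well. There were 1.15 to 3.16 Hbegf transcripts per length for each Hgf transcript in the young samples and 19.2 to 32.5 in the aged ones. Kitl and Hgf stood at nearly equal FPKM in young ECs, with ratios of 1.10, 0.835 and 0.827, and at 6.55, 6.39 and 5.19 in aged ECs. These ratios share Hgf and are therefore not independent of its own difference.

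**Figure D5:**
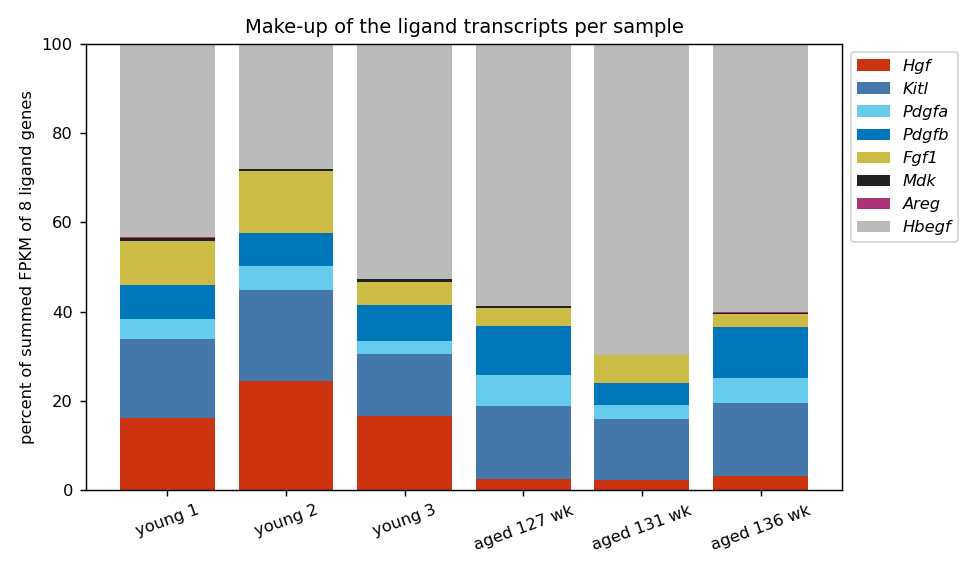
Share of each of the 8 ligand genes in their summed FPKM (vertical axis, percent), 1 stacked bar per sample. The Hgf segment takes 16.1% to 24.4% in the young bars and 2.14% to 3.14% in the aged bars, and the Hbegf segment takes the largest part of the aged bars.

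Of 20 other secreted or membrane-bound factors of liver endothelium, 4 were higher (20%) and 1 lower (5%) by the unadjusted rule. Of all tested genes, 5.43% were higher and 1.19% lower by it. Wnt2, a Wnt ligand of central vein and sinusoidal ECs, was at 819, 723 and 756 CPM in the young and 406, 490 and 247 CPM in the aged samples, with no overlap (log2 fold change -1.01, SE 0.26, edgeR, adjusted p = 0.245). It met the rule in 11 of 14 alternatives. Bmp2, which regulates iron balance from sinusoidal ECs, was lower in each aged sample (361, 1213 and 380 CPM against 1271 to 1409 CPM) but did not meet the rule (-1.05, edgeR, adjusted p = 0.413). Wnt9b (0.045) and Rspo3 (0.017), which act with Wnt2 on hepatocytes, differed little on average.

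The factors that were higher were Il6, Apln, Esm1 and Jag1. Il6 was at 6.997, 4.56 and 1.04 CPM in the young and 10.4, 26.5 and 58.8 CPM in the aged samples (log2 fold change 2.93, edgeR, adjusted p = 0.256) and met the rule in all 14 alternatives. Jag1, a membrane-bound Notch ligand, was at 88.7 to 120 CPM against 167 to 247 CPM (1.03, SE 0.20, edgeR, adjusted p = 0.193), and Esm1, an endothelial proteoglycan, at 36.8 to 105 CPM against 127 to 162 CPM (1.23, edgeR, adjusted p = 0.305). Apln overlapped, since the 131-week sample was at 6.15 CPM, within the young range of 5.30 to 9.01 CPM, and the other aged samples at 38.2 and 40.0 CPM (1.91, edgeR, adjusted p = 0.320). Esm1, Jag1 and Apln met the rule in 12, 10 and 8 of the 14 alternatives.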

How the data were processed

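Libraries from the CD31+CD45- fraction of 6 liver samples were sequenced in single reads of 75 bases. According to the submitters' processing notes and the study's methods, CASAVA 1.8.2, TopHat2 2.1.0 and Cuffnorm 2.2.1 were used with the mm9 genome. The authors deposited a table of raw counts (24421 gene symbols, not normalized) and FPKM values for 24346 symbols, scaled between samples by Cuffnorm. The counting program, its annotation and its use of strand are not given in the sources used here, so overlapping and antisense genes are uncertain.

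The 14612 genes that reached 0.5 CPM in 1 sample or more were kept, scaled by TMM and fitted with the quasi-likelihood method of edgeR 4.0.16 (R 4.3.3), with Benjamini-Hochberg adjustment. Calls needed a log2 fold change beyond 1 with an adjusted p under 0.05, and the unadjusted rule needed the same fold with an unadjusted p under 0.05. DESeq2 1.42.0, limma 3.58.1 (voom, and log2 FPKM with a pseudocount of 0.1 or 1), other filters and scaling, a term for the 2 library sets and the removal of each sample served as alternatives. The scripts were tested on simulated data. No replicates agreed within sampling noise (chi-square per degree of freedom of 20.5 or more). The labels number the young samples and give each aged sample an age of its own but do not name animals, and the methods call the samples of a group independent. The p-values measure only the spread between these samples.

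The members and lists were chosen with earlier results of these data known. Named were the 10 members, the pathway genes that met the unadjusted rule, receptors, activators and inhibitors of the members, the first genes of marker lists, Ptprc and the 5 genes most like Hgf. Some other genes of the lists, such as Lrig1, Sdc4, Bmp2, Cd3d, Wt1, Trf, Ecm1, Gdf2, Col1a1, Col3a1 and Dcn, were named after their values were seen. Intervals of count ratios are exact at 95% and cover counting error only. A few items are not reported here. Positions and promoters come from GENCODE vM1 and the mm9 sequence.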

Additional observations from a re-analysis of the deposited data

How the results depend on the processing

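No paired analysis applied, since the young and aged samples form separate groups with no pairs between them. Over 14 alternatives and 16 results, 197 of 220 values stayed near the main fit, 21 moved further from it and 2 reversed sign. A count was near if it lay within a set fold of the main count. A log2 fold change was near if it differed by less than the SD of the gene within the groups. Genes called higher and lower numbered 0 and 0 in edgeR, 395 and 77 with DESeq2, 13 and 2 with limma-voom, 3 and 1 with no filter, and 1 and 1 with a term for the library sets. By the unadjusted rule, limma on log2(FPKM + 1) gave 236 higher and 86 lower (793 and 174 in edgeR). Pathway genes by the unadjusted rule (15 higher, 4 lower) numbered 6 higher with limma on log2(FPKM + 1) and 7 lower with no filter. Leaving out each sample gave 7 to 21 higher and 1 to 5 lower, the lowest of both without the 136-week sample, which also gave the lowest counts over all genes, which ranged from 393 to 1123 higher and from 131 to 285 lower. The fits without 1 sample gave 0 to 1 genes called higher, 0 to 0 lower, and 3383 to 5023 genes without overlap (2622 with all samples), which grows with fewer samples by construction. Hgf lay between -2.56 and -2.098 in these fits. Hgfac reversed, to 0.37 with limma-voom and 0.082 without young replicate 3, in a range of -0.84 to 0.082 when single samples were left out. The causes were not tested. Values of Areg, Mdk and Hgfac, at 0 to 44 counts, are limited by depth.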
